A study of Mus musculus with 13 samples.

Results

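Insertions of a Sleeping Beauty transposon were examined in gene deserts, the stretches of the mouse autosomes that lie more than 500 kb from every protein-coding gene. Members were the insertion sites on chromosomes 1 to 19, above position 3100000, that met this distance with GENCODE M21 genes of GRCm38. There were 2001 such sites among 31892 sites of both pools studied, 1989 of them in the plasmid pool (rnd) and 12 in the remobilized pool (post). All libraries were made from F123, a mouse embryonic stem cell line (a CastX129 hybrid) grown serum-free with 2i/LIF. The remobilized pool, of wild type genotype, came from the TRACK-IT parental line after its transposons had been moved by expressing Sleeping Beauty. In the plasmid pool, also of wild type genotype, the transposons came from transfected plasmids present in many copies, as a positive control. A wild type control had no transposon, and 9 further libraries came from 1 clonal line each, with a rad21-dTag genotype. The parental line itself was not analysed here. The transposon carries a T7 promoter, from which purified genomic DNA was transcribed in the test tube, so the sequenced RNA reports DNA junctions and not gene expression, and the cell type could not be checked against marker genes. Each pool is 1 library without a replicate. The tests below therefore compare these libraries with each other or with uniform positions, not the conditions, and their intervals cover counting error only.

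Sleeping Beauty belongs to the Tc1/mariner family of transposons, moves by being cut out and pasted elsewhere, inserts at TA dinucleotides and is known for a weaker preference for genes than many retroviral vectors. A transposon that leaves a chromosomal donor site often lands again close to it, a behaviour called local hopping. Gene deserts are long intergenic stretches, many of them rich in A and T, late in replication and at the nuclear lamina. Some flank genes of development and hold distant enhancers of these genes, and others flank large neuronal adhesion genes.

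The target dinucleotide could be read only where the annotation gives bases, that is inside exons of noncoding genes or in promoter windows. Of the desert sites, 5 of the plasmid pool and 0 of the 12 of the remobilized pool lay there, and 4 of these 5 had a TA within 2 bp of the deposited base. Windows of 30 bases around 3 of these sites are shown because they carry a TA within 2 bp of the junction, in capitals, far from coding genes. All are written 5′ to 3′ on the plus strand of GRCm38, the first and second from GENCODE M21 transcripts of lincRNA genes and the third from the RefSeq promoter window (GRCm38.p6). They lie at chr7:136281684-136281713, chr12:19432375-19432404 and chr7:69801873-69801902.
C030029H02Rik: atgaaaccctgtccTAtgtggcttttcctg
Gm5784: catctgcacacacatgTAtaacatacacac
Gm35209: tcctgccaatttcTAcctcccacggctatc
In the first the A of the TA is the deposited base, as in 2 of the 5 desert sites (40%) and 73.0% of the other sites with known bases. In the second the TA lies 2 bp to the right of that place, and in the third 1 bp to the left. Elsewhere on the autosomes, 1303 of 1372 sites of the plasmid pool with known bases had a TA within 2 bp (95% exact interval 93.7% to 96.1%). The desert share, 80.0% (28.4 to 99.5), rests on 5 sites and did not differ from it detectably (Fisher's exact test, p = 0.230). Of all annotated positions in deserts, 25.5% had a TA within 2 bp. Elsewhere it was 22.0% of annotated positions sampled every 100 bases.

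Depth differed between the pools. The plasmid pool held 63031 placed reads at 31146 sites, and the remobilized pool 2116 placed reads at 746 sites, under 1 batch label. On the part of the autosomes examined (2402 Mb, above position 3100000 and up to the end of the last annotated gene), these were 29275 and 726 sites. The 248 deserts covered 201.9 Mb, or 8.41% of it, with a median length of 512.2 kb. Lengths given here are of the part beyond 500 kb from genes, so the gap between the flanking genes is 1 Mb longer.

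In the plasmid pool, deserts carried fewer insertions than the rest of the autosomes, but not many fewer. The 1989 sites made 9.85 sites per Mb of desert (95% exact Poisson interval 9.42 to 10.3), against 12.4 per Mb elsewhere (12.3 to 12.6). Uniformly random positions would have placed 2461 sites in deserts. The density ratio of desert to rest was 0.794 (95% exact interval 0.758 to 0.831, two-sided exact binomial test against the desert share of bases, p = 1.14e-24). Coding genes themselves held 13.4 sites per Mb. Against bases outside coding genes and within 500 kb of one, the ratio was 0.849 (0.810 to 0.890, exact binomial p = 3.83e-12).

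In the remobilized pool, insertions in deserts were rare. It had 12 desert sites, or 0.0594 per Mb (0.0307 to 0.104), against 0.325 per Mb elsewhere (0.301 to 0.349), where uniform positions would have given 61.0. The density ratio was 0.183 (0.0942 to 0.322, two-sided exact binomial p = 7.60e-15). Against bases outside coding genes and within 500 kb, it was 0.193 (0.0988 to 0.341). Chromosome 6 held 244 of its 726 sites and 3 of its 12 desert sites. Without that chromosome the ratio was 0.204 (0.0928 to 0.391, exact binomial p = 8.74e-10), and on chromosome 6 alone it was 0.176 (0.0360 to 0.520, exact binomial p = 0.000138). Of the chromosome 6 sites, 155 lay within 10 Mb of position 51321894, the best-supported site of the clone labelled 5kb. The nearest desert ended 6.76 Mb from that position. The chromosome 6 ratio includes these clustered sites, and chromosome 6 alone was not tested without them. In place of the exact test, a quasi-Poisson fit over 1 Mb windows, which allows for clumping, gave the same ratios but p = 0.157 with chromosome 6 and p = 1.57e-05 without it. Counting only sites with at least 2 reads left 4 desert sites of 419 and a ratio of 0.105 (0.0285 to 0.271).

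The pools differed in the share of insertions they had in deserts. It was 1.65% (0.857 to 2.87) in the remobilized pool and 6.79% (6.51 to 7.09) in the plasmid pool. At the plasmid pool's share, the remobilized pool would have had 49.3 desert sites in place of 12. The odds ratio was 0.231 (0.118 to 0.406, two-sided Fisher's exact test, p = 2.18e-10). Without chromosome 6, 9 of 482 sites against 1910 of 27520 gave 0.255 (0.116 to 0.490, Fisher's exact p = 6.49e-07). On chromosome 6 alone, with the 155 clustered sites included, 3 of 244 against 79 of 1755 gave 0.264 (0.0529 to 0.811, Fisher's exact p = 0.0144). Among sites outside coding genes, 3.13% against 12.4% lay in deserts (odds ratio 0.227, 0.116 to 0.403, Fisher's exact p = 3.76e-10). Among sites with at least 2 reads, 4 of 419 against 1050 of 15828 gave 0.136 (Fisher's exact p = 2.95e-08). The part of the unequal depth of the pools in this difference was not tested otherwise.

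The 2 pools also differed in how density changed on the way from genes to deserts. In the plasmid pool, density declined gently, from 13.4 sites per Mb inside coding genes and 12.7 within 10 kb of one to 10.9 at 100 to 250 kb and 10.6 at 250 to 500 kb. It was 10.1 at 500 to 750 kb, 9.82 at 750 to 1000 kb, 9.34 at 1000 to 1500 kb and 9.99 beyond. Intervals of neighbouring steps from 250 kb outward overlapped. Relative to the autosome mean of its own pool, the density of the remobilized pool was 1.14 inside coding genes (1.02 to 1.27) and 2.31 within 10 kb of one (1.96 to 2.69). It was 0.644 at 50 to 100 kb and 0.725 at 100 to 250 kb, then 0.218 at 250 to 500 kb (0.116 to 0.372). Inside deserts it was 0.220 at 500 to 750 kb, 0.139 at 750 to 1000 kb and 0.280 at 1000 to 1500 kb. Beyond 1500 kb the remobilized pool had 0 of 726 sites, on 0.704% of the bases. Taking 3 sites as an approximate upper bound allows a share of up to 0.413%. The exact Poisson interval reaches further, to 0.721 of the autosome mean. The low density of this pool was thus not limited to deserts and was already present at 250 to 500 kb, where it had 13 sites. Without chromosome 6 the relative density in that step was 0.300, and among sites with at least 2 reads it was 0.116, from 4 sites.

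**Figure D1:**
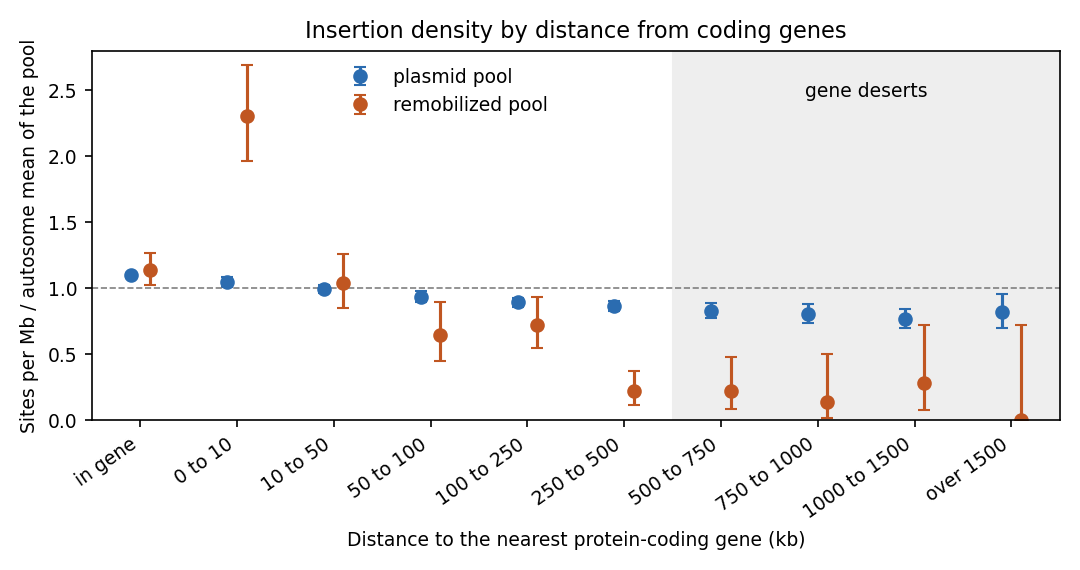
Sites per Mb divided by the autosome mean of the same pool (vertical axis) in steps of distance to the nearest protein-coding gene in kb (horizontal axis), with 95% exact Poisson intervals. Points of the plasmid pool run from 1.10 in genes to between 0.766 and 0.829 in the shaded desert steps, and those of the remobilized pool from 2.31 within 10 kb to 0.280 or less in deserts.

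Next to the limit itself the plasmid pool had 10.4 sites per Mb at 450 to 500 kb and 10.5 at 500 to 550 kb. The remobilized pool had 2 and 1 sites in these steps. Its desert site nearest to the limit was 531.9 kb from a coding gene and its farthest site outside deserts 456.4 kb. For the plasmid pool these values were 500.2 and 499.7 kb. Its desert sites were a median of 785.2 kb from the nearest coding gene, close to the 795.0 kb of desert positions taken at every kb, and those of the remobilized pool a median of 758.7 kb.

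The size of a desert made no detectable difference to its density. In the plasmid pool, the 122 deserts under 0.5 Mb had 10.3 sites per Mb (9.11 to 11.6), the 55 of 0.5 to 1 Mb had 9.89 (8.93 to 10.9), the 45 of 1 to 2 Mb had 9.50 (8.77 to 10.3), and the 26 over 2 Mb had 10.00 (9.26 to 10.8). Each class was below the rest of the autosomes, with ratios from 0.766 to 0.829 and exact binomial p-values, Benjamini-Hochberg adjusted over 4 classes, of at most 0.00147. The 26 deserts over 2 Mb had 1.02 times the density of the other deserts (0.931 to 1.12, exact binomial p = 0.636). The remobilized pool had 2, 2, 4 and 4 sites in the classes from shortest to longest, with ratios to the rest from 0.156 to 0.226 (adjusted exact binomial p at most 0.0156). Compared with the plasmid pool class by class, its share was lower in the 3 longer classes, with odds ratios of 0.204, 0.252 and 0.230 (Fisher's exact tests, adjusted p = 0.00974, 0.00194 and 0.00150). In deserts under 0.5 Mb the odds ratio of 0.286 did not pass (0.0344 to 1.05, Fisher's exact test, adjusted p = 0.0747). Here the remobilized pool had 2 sites where 6.94 would match the plasmid pool.

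**Figure D2:**
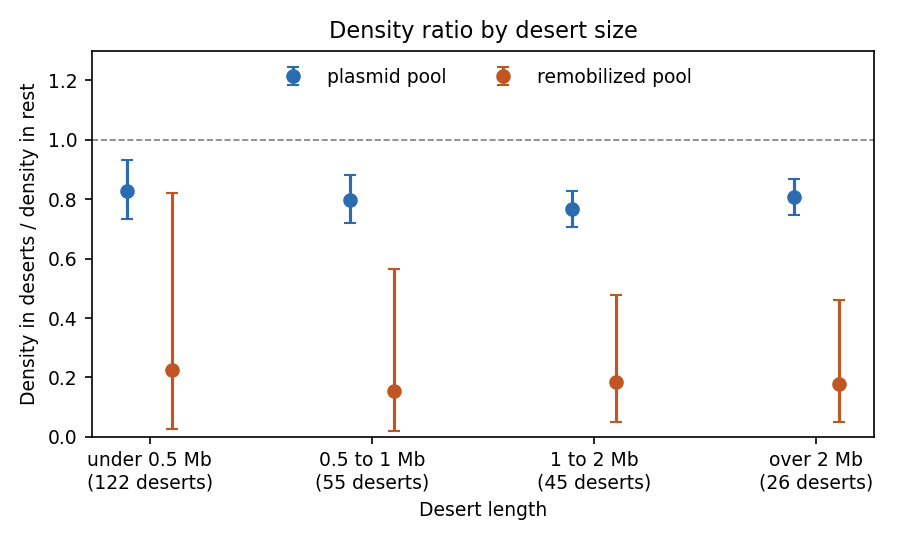
Density in deserts divided by density in the rest of the autosomes (vertical axis) for 4 classes of desert length (horizontal axis), with 95% exact intervals. All points of the plasmid pool lie between 0.766 and 0.829 and all of the remobilized pool between 0.156 and 0.226, with no order by length.

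The lower desert density of the plasmid pool recurred on most chromosomes. Desert density was below that of the rest on 18 of 19 autosomes, with ratios from 0.623 on chromosome 4 to 1.16 on chromosome 9 and a median of 0.838. The 95% exact interval of the ratio lay below 1 on 10 autosomes and above 1 on 0. Chromosome 9, the exception, had 68 sites on 4.75 Mb of desert, or 14.3 per Mb against 12.4 elsewhere (ratio 0.892 to 1.47). Chromosome 4 had 91 sites on 11.1 Mb, or 8.19 per Mb against 13.2. In the remobilized pool, 8 autosomes had a desert site and 11 had 0. The interval of its ratio lay below 1 on 3 autosomes, chromosomes 6, 11 and 12, so most single autosomes were too thinly filled to show a difference.

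**Figure D3:**
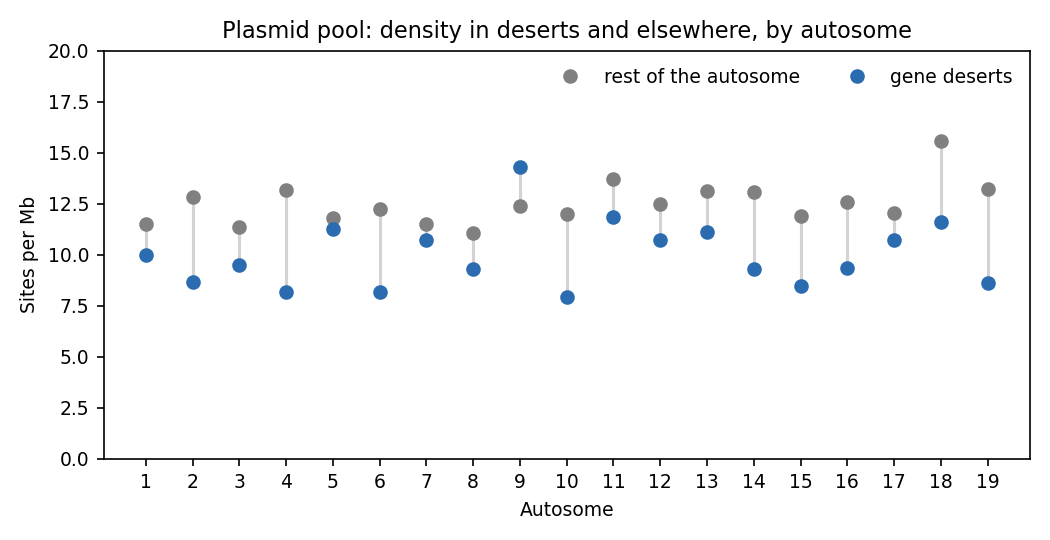
Sites per Mb of the plasmid pool (vertical axis) in deserts and in the rest of each autosome (horizontal axis), 1 point each. The desert point lies below the other on 18 of the 19 autosomes, and above it on chromosome 9.

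The 10 longest deserts, described by their flanking coding genes, held 312 sites of the plasmid pool on 31.5 Mb. All 10 were below the 12.4 sites per Mb of the rest, from 7.92 to 11.2, but for 8 of them the interval included that value. The longest was the 3.67 Mb between Tenm3, a teneurin that guides neuronal wiring, and Aga, a lysosomal enzyme, on chromosome 8 from 49343952 to 53011726. It had 41 sites, or 11.2 per Mb (8.02 to 15.2), where the density of the rest would give 45.5. The 3.54 Mb between the protocadherin genes Pcdh20 and Pcdh9 on chromosome 14, from 88971397 to 92513409, had 38 sites (10.7 per Mb) and was the only one of the 10 with a site of the remobilized pool. Between Celf4, an RNA-binding protein of neurons, and Pik3c3, the class III phosphoinositide kinase, the 3.52 Mb on chromosome 18 had 31 sites (8.81 per Mb, 5.99 to 12.5). A second desert of chromosome 14, between Olfm4, an intestinal stem cell marker, and Pcdh17, had 36 sites on 3.42 Mb.

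Of these 10, the 2 whose intervals lay below the density of the rest were both on chromosome 1. Among all 26 deserts over 2 Mb, 5 had such an interval. One, between Cntnap5b, a contactin-associated protein, and the cadherin Cdh20, from 100985943 to 104268528, had 26 sites where 40.7 would match the rest (7.92 per Mb, 5.17 to 11.6). The other, between the zinc transporter gene Slc39a10 and Tmeff2, from 47392853 to 50400646, had 25 where 37.3 would match (8.31 per Mb, 5.38 to 12.3). The last 4 were nearer to the rest. They were the deserts between Sel1l and Flrt2 on chromosome 12 (28 sites), between Dsel and Cntnap5a on chromosome 1 (30 sites), between Zeb2, a transcription factor of the neural crest, and the activin receptor gene Acvr2a on chromosome 2 (27 sites), and between Pcdh7 and G6pd2 on chromosome 5 (30 sites).

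**Figure D4:**
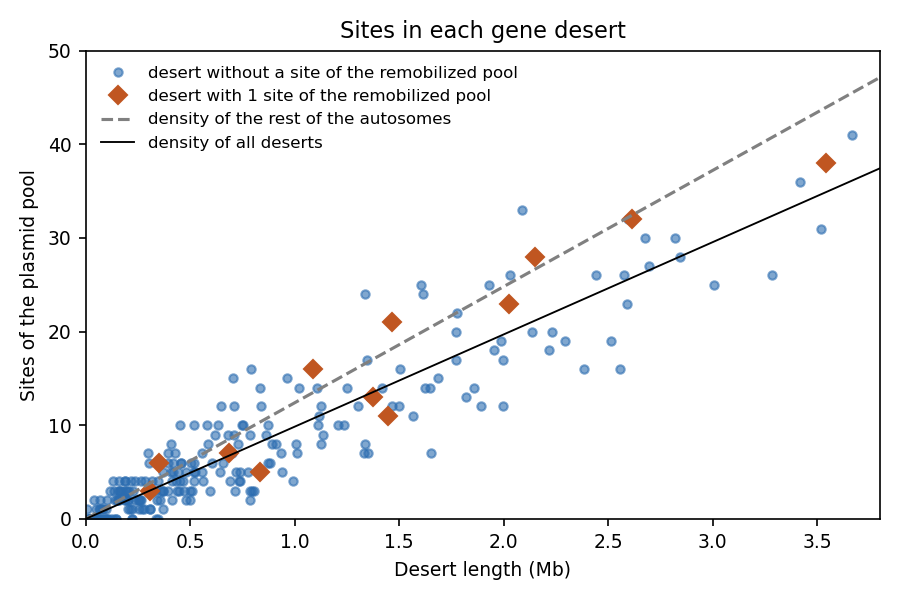
Number of sites of the plasmid pool (vertical axis) against desert length in Mb (horizontal axis), 1 point per desert, with lines at 12.4 sites per Mb (rest of the autosomes) and 9.85 (all deserts). Diamonds mark the 12 deserts with 1 site each of the remobilized pool, which are spread over the range of lengths.

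Over all 248 deserts, the counts of the plasmid pool had a Pearson dispersion of 1.26, somewhat more than the values near 1 of pure counting. The excess was not tested, and the value includes very short deserts, down to 6.31 kb, where few sites are expected. Of the 126 deserts of at least 0.5 Mb, 97 were below the density of the rest, with a lowest value of 2.54, a median of 9.42 and a highest of 21.3 sites per Mb. The deserts at both ends were looked up after their values were seen. The lowest, between Edem1 and Grm7, a metabotropic glutamate receptor gene, on chromosome 6, had 2 sites on 0.786 Mb (0.308 to 9.19 per Mb). The highest, between the potassium channel gene Kcnj2 and Sox9, the transcription factor of cartilage and testis development, on chromosome 11 from 111576822 to 112282223, had 15 sites on 0.705 Mb (11.9 to 35.1 per Mb). There were 34 deserts with no site of the plasmid pool, the longest of 347.3 kb.

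In a scan of the whole autosomes, no desert window stood out singly. Of 2391 windows of 1 Mb, 0.0418% were below and 0.878% above the mean window of 12.2 sites (two-sided exact binomial tests, Benjamini-Hochberg adjusted p under 0.05). Among the 172 windows with at least 50% of their bases in deserts, 0 were called in either direction. The single window called low held 0 sites, and those called high held at least 26. A window at the desert median of 9 sites could not be called low, so the 0 low calls say nothing of the lower desert density. At an unadjusted p under 0.05 (exact binomial tests), 12 desert windows were low (6.98%), against 4.14% of all windows, and 3 were high (1.74%), against 5.6% of all windows. Their median was 9 sites, and that of all windows 12.

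Deserts were grouped by the genes beside them. A gene from a list of neuronal adhesion families (among them cadherins, protocadherins, contactin-associated proteins, teneurins and ephrin receptors) flanked 57 deserts of 77.0 Mb in all, and one from a list of developmental transcription factors flanked 23 deserts of 11.5 Mb. The lists are not complete, and deserts beside adhesion genes such as Cadm2, Ncam2, Alcam, Nectin3, Kirrel3, Fat3 and Mdga2 were counted with the other deserts. None was flanked by a gene of each list. Beside the listed adhesion genes the plasmid pool had 794 sites, or 10.3 per Mb (9.61 to 11.1). Beside the listed transcription factor genes it had 124 sites, or 10.7 per Mb (8.94 to 12.8), and in the 168 other deserts 1071, or 9.45 (8.89 to 10.0). The intervals overlap, and no test was made. The remobilized pool had 6 sites beside listed adhesion genes, 6 in the other deserts, and 0 of 726 beside listed transcription factor genes, where the upper bound of the exact Poisson interval is 0.320 per Mb.

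Counts of single deserts beside listed transcription factor genes were small, and 9 of the 23 were above and 14 below the density of the rest, where 175 of all 248 deserts were below it. The 1.68 Mb between Nr2f1, an orphan nuclear receptor of neural development, and Arrdc3 had 15 sites of the plasmid pool, where the density of the rest would give 20.9. The 0.786 Mb between the growth regulator Myc and Gsdmc had 9 sites against 9.75. Beside Sox2 and Klf4, both factors of pluripotency, the deserts were 0.102 and 0.208 Mb long and had 2 sites against 1.26 and 3 against 2.57. These 4 deserts were picked by hand after their values were seen, and the intervals of their densities overlap.

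The 12 desert sites of the remobilized pool lay in 12 different deserts. Of these, 8 had 1 read, 2 had 2 reads, and the others 4 and 5 reads. On chromosome 1, the site at 28037458 had 4 reads and was 738.7 kb from Gm597, and the site at 108610383 had 2 reads, 999.9 kb from Serpinb8, a serine protease inhibitor gene, with Cdh7 on its other side. The site on chromosome 3 at 150346844 (1 read) lay between Adgrl2 and Adgrl4, 2 adhesion receptors of the latrophilin group, 1091 kb from the latter. Chromosome 4 had 2 sites with 1 read, at 27719295 between Manea and the ephrin receptor gene Epha7, and at 68037715 between Tlr4, the receptor for bacterial endotoxin, and Brinp1, in an intron of the lincRNA Gm11751. On chromosome 5 the site at 78186855 (1 read) was 778.8 kb from Igfbp7 and 2833 kb from the latrophilin gene Adgrl3.

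Chromosome 6 had 3 of the 12, of which 2 are described. The site at 75034723 had 5 reads, the most of the 12, and was also the farthest from coding genes, 1461 kb from Gm9008. The site at 79054514 (1 read) was 585.6 kb from Reg3g, an antimicrobial lectin gene. The 5kb clone had 6 sites, and the one with the most reads (1555 of 1562) was on the same chromosome at 51321894, from which the nearest desert ended 6.76 Mb away. With 10 Mb on either side of that position left out, which removes 155 sites, 1 of them in a desert, 11 of 571 sites of the pool lay in deserts (ratio 0.213, 0.106 to 0.384, exact binomial p = 7.51e-11). The last 3 sites were on chromosome 14 at 89692770 (1 read), on chromosome 16 at 83416029 (2 reads, 586.1 kb from Gm21833) and on chromosome 18 at 19429025 (1 read, 531.9 kb from the desmosomal gene Dsc3).

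One desert site was found in both pools. The chromosome 14 site between Pcdh20 and Pcdh9 had 1 read in each pool, at the same base and on the same strand. The chromosome 1 site at 108610383 had a plasmid pool site of 1 read 28 bp away on the same strand. The other 10 had their nearest site of the plasmid pool 16.3 to 181.9 kb away. Leaving out all sites of the remobilized pool within 100 bp of one of the plasmid pool kept 710 of 726 autosomal sites and 10 of 12 desert sites. Of these 710 sites, 10 lay in deserts, with a ratio of 0.156 (0.0743 to 0.288, exact binomial p = 6.44e-16). Sites within 10 bp of each other were counted for deserts only, so no share over all sites stands beside that count.

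The best-supported desert sites of the plasmid pool had 14 to 21 reads. The site with 21 reads was on chromosome 3 at 12429189, 1042 kb from Ralyl. Another 2 had 16 reads, at 46073590 on chromosome 2, 956.2 kb from Zeb2, and at 60944867 on chromosome 5, in an intron of the lincRNA 1700014F14Rik, 863.9 kb from G6pd2. A further 2 had 14 reads, at 26730077 on chromosome 6, 545.0 kb from the glutamate receptor gene Grm8, and at 13833431 on chromosome 15, 659.8 kb from Cdh6.

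Deserts hold genes other than coding ones, and insertions were neither more nor less dense in most of these to a detectable degree. Noncoding genes and pseudogenes, 1589 in number, covered 6.89% of desert bases and held 142 of the 1989 sites of the plasmid pool (7.14%, density ratio within deserts 1.04, 0.869 to 1.23, exact binomial p = 0.658). Long noncoding RNA genes, 363 in number, held 138 sites (ratio 1.12, 0.935 to 1.33, adjusted exact binomial p over 5 classes 0.486). Most sites in 1 gene, 12, were in the 666.5 kb lincRNA gene Gm32647 on chromosome 7. The 640 pseudogenes held 4 sites, a ratio of 0.347 (0.0944 to 0.889) that did not pass after adjustment (exact binomial p = 0.0246, adjusted 0.123). Reads from near-identical copies cannot always be placed, and whether that lowers the count in pseudogenes was not tested. Immunoglobulin and T cell receptor segments, which GENCODE does not class as protein-coding genes, filled part of some deserts. Among these were the loci between Adam6a and Zfp386 on chromosome 12 (16 sites) and between Olfr1507 and Dad1 on chromosome 14 (4 sites). The segments themselves had 0 of 1989 sites, on 0.0780% of desert bases. With 3 sites taken as an approximate upper bound, this allows up to 0.151%. In the remobilized pool, 2 of 12 desert sites lay in noncoding genes, both lincRNAs (odds ratio to the plasmid pool 2.60, 0.274 to 12.4, Fisher's exact p = 0.212).

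Reads per site and strand, which the choice of members did not use, were compared between desert sites and the rest. In the plasmid pool, 47.2% of desert sites had 1 read, against 45.8% of the rest, and 5.38% against 6.01% had at least 5 reads. The plus strand held 50.3% of desert sites and 50.6% of the rest. In the remobilized pool 8 of 12 desert sites had 1 read, or 66.7%, against 41.9% of the rest (odds ratio 2.77, 0.735 to 12.7). None of these differences passed (Fisher's exact tests, adjusted p over 6 tests from 0.561 to 0.816), and 12 sites leave a wide interval. Sites within 1 kb of another site made up 3.17% of desert sites and 5.13% of the rest in the plasmid pool, which was not tested, since density differs too.

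The control and the clones were looked at for the same kind of site. The control had 1 read, without a position. The 9 clones had 56 sites on the autosomes, 2 of them in deserts, with 1 read each. These were 1 of 1293 placed reads, at 13 sites, in the 260kb clone and 1 of 3088, at 26 sites, in the 2Mb clone. Whether sites with so few reads are insertions of the clones was not tested. The site of the 260kb clone was on chromosome 4 at 30036404, between Epha7 and Map3k7, 1069 kb from Epha7. That of the 2Mb clone was on chromosome 6 at 75189739, in the same desert as the site of the remobilized pool with 5 reads and 155.0 kb from it. The other 7 clones had 0 of 18 sites in deserts. They were set apart by that count, so no bound on a share is drawn from it.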

How the data were processed

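The authors deposited whole-number read counts per single-base position and strand, with no normalization, per the file headers and values. The submitters' processing notes name BWA, FastQC, deepTools and the build mm10 (GRCm38), without versions. The treatment of duplicate reads is not given in the sources used here, and counts carry no molecular identifiers. Positions within 10 bp on either strand were merged into 1 site at the position with most reads, with no minimum of reads. Genes came from GENCODE M21, and 7 sites of the plasmid pool beyond the last annotated gene of an autosome were left out. Densities were compared with exact conditional binomial tests and shares of sites with Fisher's exact tests, all two-sided (Python 3.11.15, SciPy 1.17.1), and clumping with quasi-Poisson fits (statsmodels 0.14.6). Uniform positions are represented by the share of bases, without draws. Named were the 10 longest deserts, the 5 best-supported desert sites of the plasmid pool, those of the remobilized pool (1 is not reported here), and shared sites; others are said to be picked by hand. Flanking genes were matched by symbol to 2 lists. The members and lists were chosen with earlier results of these data known. The density test was checked on simulated positions. A genome sequence was not used, so unreadable bases, mappability and TA content of deserts were not measured.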

Additional observations from a re-analysis of the deposited data

Results flagged for a closer look

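The remobilized pool differed from the plasmid pool in its share of autosomal sites in gene deserts, with an odds ratio of 0.231 (two-sided Fisher's exact test, p = 2.18e-10). Each pool is 1 library, and this test does not allow for the clumping of sites.

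In libraries outside the comparison, 1 desert site was found in the 260kb clone and 1 in the 2Mb clone. Each had 1 read, of 1293 and 3088 placed reads, while the control had 0 placed reads.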

How the results depend on the processing

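No paired analysis was possible because each group is 1 library and the groups share only replicate number 1. The desert to rest ratio stayed below 1 and past the threshold under the other tested settings, except those named here; reads in place of sites gave 0.782 for the plasmid pool and 0.112 for the remobilized pool with no test. When genes of any biotype bounded deserts, only 0.0251% of the bases remained, with 7 sites of the plasmid pool (ratio 0.952, exact binomial p = 1) and 0 of the remobilized pool (ratio 0, odds ratio to the plasmid pool 0, both exact p = 1); so few bases leave little to test. In place of the exact test, the quasi-Poisson fit gave 0.183 for the remobilized pool with p = 0.157, at a dispersion of 17.003, and without chromosome 6, where the dispersion was 1.20, it gave 0.204 with p = 1.57e-05. Apart from genes of any biotype, the ratio of the plasmid pool ran from 0.711 (at least 5 reads) to 0.849 (bases outside coding genes), that of the remobilized pool from 0.0973 (at least 5 reads, 1 desert site) to 0.213, and the odds ratio between pools from 0.136 (at least 2 reads) to 0.268. With single autosomes left out, these ran from 0.784 to 0.805, 0.159 to 0.204 and 0.198 to 0.255. Limits of 250 kb and 1 Mb gave 0.811 and 0.776 for the plasmid pool and 0.179 and 0.202 for the remobilized pool. Sorting deserts by the gap between genes gave the same classes by construction, and no desert touched an end of the span. Counts of called desert windows were 0 with at least 2 or 5 reads and with 500 kb windows, where the mean window fell to 6.59, 0.726 and 6.09 sites, so that low calls were scarcely possible and these counts say nothing of stability. Settings that leave out coding genes, immune receptor segments, the surroundings of the 5kb clone's site or shared sites, or that join 2 choices, were chosen after seeing the data. Bases that are not N, and TA dinucleotides, were not run as denominators. With 12 sites, the remobilized pool cannot resolve differences between deserts.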
